A study of Homo sapiens with 6 samples.

Results

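The 35 genes described here encode the machinery that brings new proteins into the endoplasmic reticulum (ER) and glycosylates them on arrival. They were taken from a fixed list of symbols, and all 35 were found among the 60420 gene identifiers of the table. The list holds 10 subunits of the oligosaccharyltransferase, 4 genes of the SEC61 channel, SEC62 and SEC63, TRAM1 and TRAM2, 4 subunits of the translocon-associated protein complex (TRAP), 5 subunits of the signal peptidase, 6 proteins of the signal recognition particle (SRP) and both chains of its receptor. Ribosome profiling of HEK293T, an established cell line from human embryonic kidney that expresses a viral T antigen, gave their levels. The groups had received vehicle (DMSO), an inhibitor of PRMT1 or an inhibitor of PRMT4, without compound names, doses or times in the labels. PRMT1 and PRMT4 (also called CARM1) methylate arginines in proteins. For each group there was 1 footprint library, made from RNA that ribosomes protected from RNase, and 1 input library. The labels describe the inputs, too, as ribosome-protected RNA; here they stand for the RNA level.

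Proteins bound for secretion or for a membrane carry a hydrophobic signal that the SRP recognises as it leaves the ribosome. The SRP brings the ribosome to its receptor on the ER, the ribosome docks on the SEC61 channel, and the growing chain passes through or into the membrane. Signal peptidase then removes the signal, and the oligosaccharyltransferase moves a preassembled glycan onto asparagine residues of the chain. Most proteins of this machinery are themselves made on ER-bound ribosomes, whereas the SRP proteins are made on free ribosomes.

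Values are TPM, a transcript abundance that is scaled for gene length and sums to the same total in each library. A ratio is log2 of one library's TPM plus 1 over another's, relative to the median of the 9040 genes with a mean of at least 5 TPM, and a translation efficiency (TE) is the footprint value over the input value. Because no group was replicated, no error could be given and no p-value computed, no order of levels could be set against a spread, and every difference describes these libraries only. TPM keeps no sequencing depth, so no counting interval was possible and ratios at a few TPM are the least certain. In bulk lysates, fewer cells of a kind and less RNA per cell cannot be told apart. Input libraries listed 30576 to 30860 genes above 0 and footprint libraries 20485 to 21161. Of the markers set for the line, VIM ran from 104 to 208 TPM, but NEFL, NEFM, LHX1 and PAX2 had at most 7 TPM; the leukocyte gene PTPRC and the hepatocyte gene ALB had at most 0.03 TPM, the erythroid gene HBB was listed at 0, and the fibroblast gene COL1A1 had 1.97 to 3.82 TPM. The inhibitor labels ran against each other between the fractions. Over 8117 protein-coding genes, the PRMT1-minus-PRMT4 difference in input and the same difference in footprints, which share no library, had a Pearson correlation of -0.42 across genes, which are not replicates. Libraries are therefore named by their labels, and TE is given with the input of the same label and with that of the other label.

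Among the 35 genes, levels in the DMSO input ran from 1.35 TPM for TRAM2 to 201 TPM for SRP9, with a median of 21.0 TPM. SRP9 was followed by SEC61G at 130 TPM, SEC61B at 104 TPM and OST4 at 92.7 TPM. In DMSO footprints OST4 led with 478 TPM, followed by SRP9 at 465 TPM and SRP14 at 394 TPM. These 3 genes made up 56.1% of the footprint TPM of the list. The summed TPM of the list was 0.126% of the DMSO input and 0.238% of the DMSO footprints. Protein-coding genes held 45.7% and 74.3% of TPM in these libraries, and as a share of protein-coding TPM the list had 0.276% and 0.321%. Under the PRMT1 label protein-coding genes held 38.7% of input and 62.3% of footprint TPM, and under the PRMT4 label 33.4% and 70.6%. The list had 0.308% and 0.352% of protein-coding TPM under the PRMT1 label, and 0.296% and 0.357% under the PRMT4 label. The 3 genes with a mean below 5 TPM were TUSC3, TRAM2 and SEC61A2. TUSC3, an oxidoreductase subunit of the oligosaccharyltransferase that alternates with MAGT1, had 6.57 TPM in the DMSO input, 7.38 TPM under the PRMT1 label and 7.20 TPM under the PRMT4 label, and 1.42, 2.28 and 1.80 TPM in the footprints. SEC61A2, a close relative of the channel subunit SEC61A1, had 5.44, 7.57 and 6.17 TPM in input and 1.82, 3.64 and 3.39 TPM in footprints. TRAM2 stayed at or below 1.35 TPM in all 6 libraries. No ratio was computed for these 3, which left 32 genes.

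**Figure D1:**
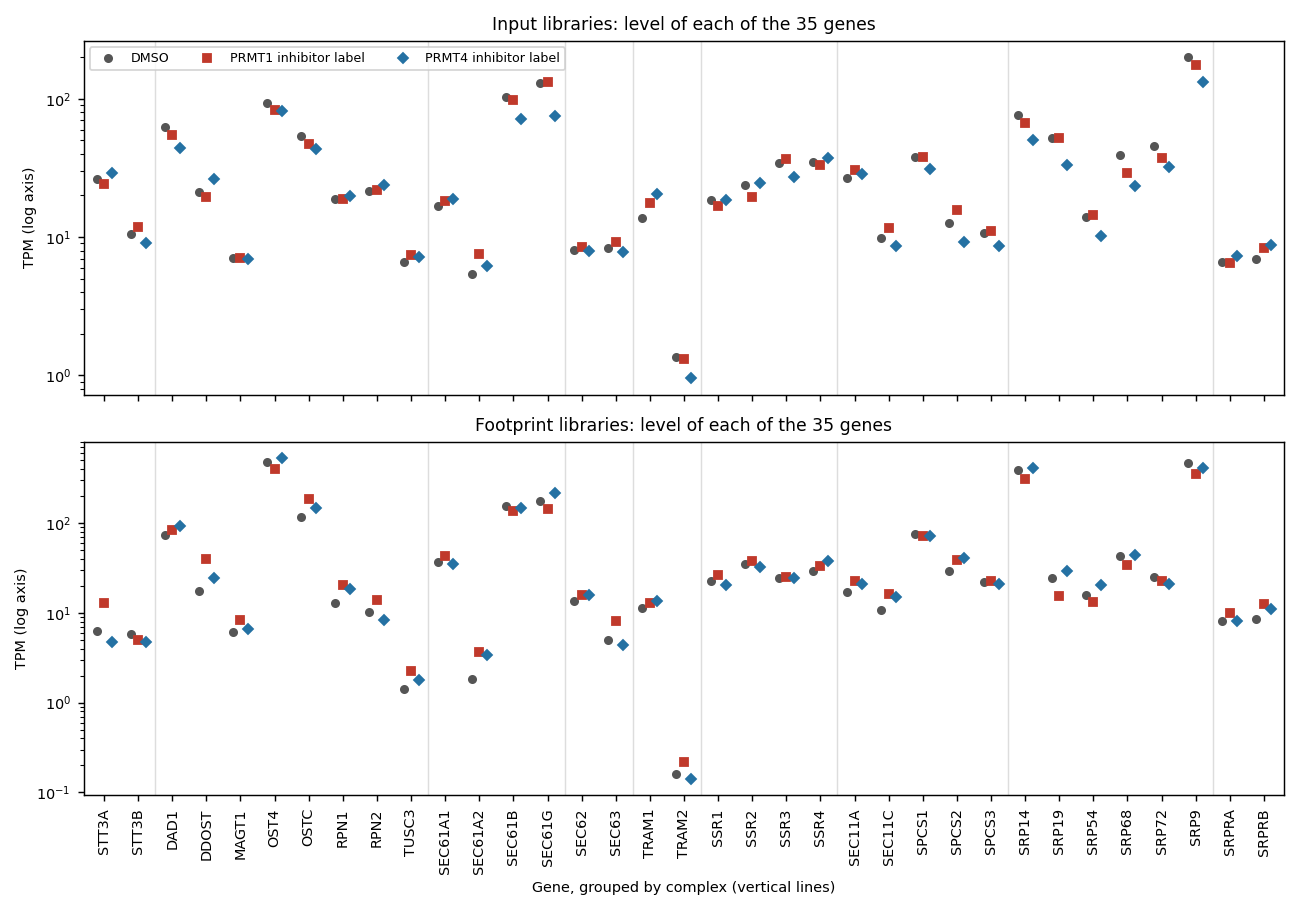
Level of each of the 35 genes in TPM on a log axis, in the 3 input libraries (top) and the 3 footprint libraries (bottom); each point is 1 library, and vertical lines separate the complexes. SRP9 stands highest in each input library, OST4 in each footprint library and TRAM2 lowest in all 6.

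Footprints per input message differed widely between subunits of the same complex in DMSO. The highest ratios were those of OST4, the smallest oligosaccharyltransferase subunit, and SRP14, a protein of the SRP domain that slows elongation, both at 2.27. The lowest were those of STT3A, a catalytic subunit of the oligosaccharyltransferase, at -1.97, SRP19, an SRP assembly protein, at -1.14, and RPN2, a further oligosaccharyltransferase subunit, at -1.10. Of the 32 genes, 8 stood 1.5-fold or more above the median gene and 8 as far below it, 25.0% each, against 28.3% and 29.8% of all 9040 genes. Among protein-coding genes the shares were 27.5% higher and 28.4% lower, with 50.6% above 0. The spread of the list was therefore near that of the background.

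OST4 has the shortest reading frame of the list, with 37 residues, and it is shown in full because so short a frame offers few positions to footprints. It lies on the minus strand at chr2:27071349-27071462 of GRCh38, in GENCODE release 29, with the start and stop codons in capitals.
OST4: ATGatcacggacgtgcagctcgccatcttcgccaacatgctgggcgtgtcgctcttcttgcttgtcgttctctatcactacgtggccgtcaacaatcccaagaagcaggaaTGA
Across the 32 genes, longer proteins had lower footprint-to-input ratios in DMSO, with a Pearson correlation of -0.58 and a Spearman correlation of -0.58 between the ratio and the number of residues. The points share the same 2 libraries, and the length by which footprint TPM was scaled is not known here. The coding share of the transcript had a weaker relation to the ratio, with a Pearson correlation of -0.31. In footprints of the PRMT1 label against DMSO, longer proteins instead tended to have higher ratios. The Pearson correlation with the number of residues was 0.32 and the Spearman correlation 0.43. Protein length was not separated from complex or topology in the groupings below.

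**Figure D2:**
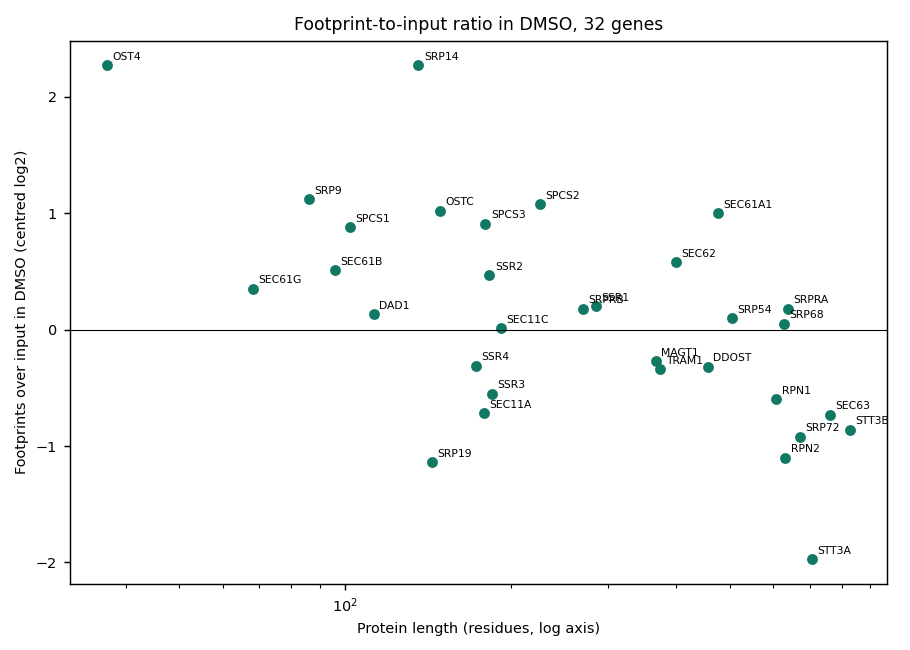
Footprints over input in DMSO, as a centred log2 ratio, against protein length in residues on a log axis for the 32 genes; each point is 1 gene in 1 pair of libraries. OST4 and SRP14 stand at 2.27 and STT3A at -1.97.

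In footprints labelled PRMT1 inhibitor, 22 of the 26 genes other than the SRP proteins lay above the median gene and 5 of the 6 SRP proteins below it, a difference that was not tested. The 4 exceptions among the 26 were STT3B, OST4, SEC61B and SEC61G, and that among the SRP proteins was SRP72. The whole list had a median ratio to DMSO of 0.31, with 23 of 32 genes above 0. At least 1.5-fold higher were 7 genes, or 21.9%, against 9.48% of all genes tested and 6.67% of protein-coding genes. None of the 32 was at least 1.5-fold lower, against 4.65% of all genes and 4.2% of protein-coding genes. Before centring on the median gene the list median was 0.17.

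The oligosaccharyltransferase held 4 of the 7. DDOST, a non-catalytic subunit that anchors the complex, had 17.8 TPM in DMSO footprints, 40.0 TPM under the PRMT1 label and 24.7 TPM under the PRMT4 label. The PRMT1-label library was the highest and DMSO the lowest, with a ratio of 1.28, or 2.42-fold relative to the median gene. STT3A, the catalytic subunit that works beside the channel as the chain enters, had 6.35, 12.9 and 4.78 TPM in the same order, a ratio of 1.07. OSTC, the subunit that links STT3A complexes to the translocon, had 117, 184 and 146 TPM and a ratio of 0.79. RPN1, ribophorin I, had 12.8, 20.2 and 18.3 TPM and a ratio of 0.77. DDOST and STT3A were the only 2 of the 32 genes past 2-fold, as were 3.25% of all genes. RPN2 at 0.55 and MAGT1, an oxidoreductase subunit of STT3B complexes, at 0.54 lay just under 1.5-fold. STT3B, the other catalytic subunit, which glycosylates sites missed during entry, had 5.79, 4.97 and 4.69 TPM and a ratio of -0.04. Of the catalytic isoforms, STT3A was thus above the median gene and STT3B near it, at footprint levels of only a few TPM. DAD1 stood at 0.32 and OST4 at -0.11.

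In the channel and its partners, SEC63, which recruits the chaperone BiP to the channel, had 5.0 TPM in DMSO footprints, 8.17 TPM under the PRMT1 label and 4.40 TPM under the PRMT4 label. Its ratio of 0.76 was the highest outside the oligosaccharyltransferase. SEC61A1, the pore-forming subunit, had 37.0, 43.4 and 35.5 TPM and a ratio of 0.37. The small subunits SEC61B and SEC61G, which are anchored by their C-terminal end, stood at -0.07 and -0.13. SEC62, which helps short chains to enter, had a ratio of 0.37 and TRAM1, which lies beside the channel, one of 0.29. The 4 TRAP subunits, which bind the ribosome-channel complex, lay close together from 0.18 for SSR3 to 0.32 for SSR1.

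The signal peptidase genes all lay above 0. SEC11C, one of the catalytic chains, had 10.7 TPM in DMSO footprints, 16.1 TPM under the PRMT1 label and 15.1 TPM under the PRMT4 label, a ratio of 0.70 for the PRMT1 label. Its relative SEC11A had a ratio of 0.53, and SPCS2, an accessory chain, one of 0.55. SPCS3 and SPCS1 stood at 0.16 and 0.07. Of the SRP receptor, the membrane-spanning chain SRPRB had 8.54, 12.6 and 11.02 TPM and a ratio of 0.65. The peripheral chain SRPRA had a ratio of 0.40. SEC11C and SRPRB were past 1.5-fold only by a small margin. Without centring they lay at 0.55 and 0.51, and with a pseudocount of 5 TPM at 0.54 and 0.49. With that pseudocount SEC63 also fell short, at 0.51. The 4 genes that remained past 1.5-fold were those of the oligosaccharyltransferase.

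The 6 SRP proteins had a median of -0.19 and 1 of 6 above 0. SRP19 had 24.7 TPM in DMSO footprints, 15.6 TPM under the PRMT1 label and 29.4 TPM under the PRMT4 label, the lowest ratio of the list at -0.48. SRP9 had 465, 352 and 409 TPM (-0.25) and its partner SRP14 had 394, 307 and 409 TPM (-0.21). SRP68 stood at -0.17, SRP54, the subunit that binds the signal, at -0.11, and SRP72, the partner of SRP68, at 0.02. Reads can be shared with copies of SRP14 and SRP9 elsewhere in the genome. The copy SRP14P2 was listed at 61.8 TPM and SRP9P1 at 27.9 TPM in DMSO footprints, against 7.39 and 2.05 TPM in the DMSO input. The levels of SRP14 and SRP9 and their footprint-to-input ratios in DMSO are therefore uncertain, by an amount not measured here. The RNA of the SRP was not analysed here, since neither RN7SL1 nor RN7SL2 was matched to a row by identifier.

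**Figure D3:**
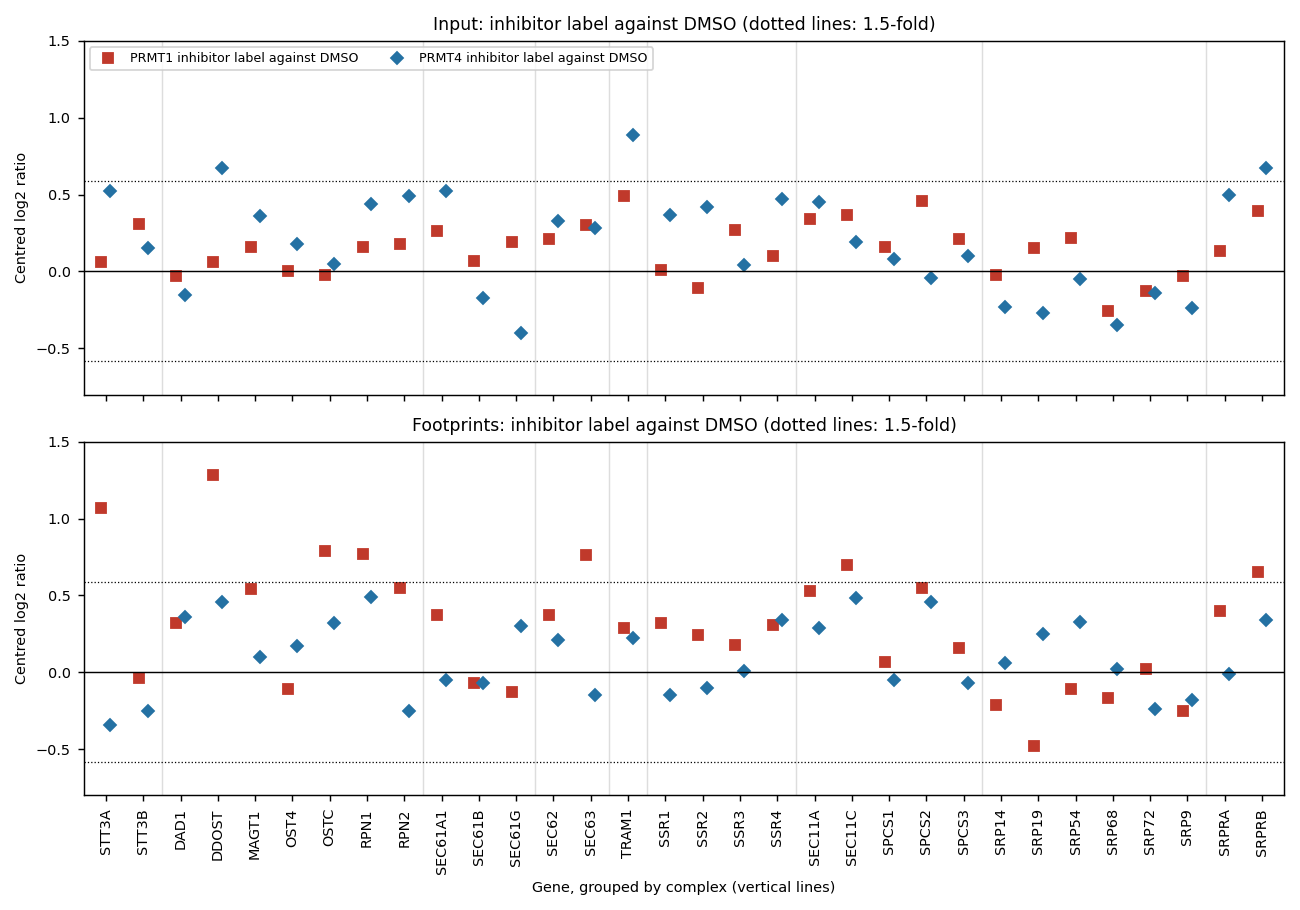
Centred log2 ratio of each inhibitor label to DMSO for the 32 genes, in input (top) and footprints (bottom); each point is 1 gene in 1 pair of libraries, dotted lines mark 1.5-fold, and both labels share the DMSO library. In footprints, DDOST at 1.28 and STT3A at 1.07 stand highest under the PRMT1 label.

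The genes were also grouped by how their protein meets the ER membrane, from textbook knowledge and with earlier results of these data known. The 7 genes with a signal peptide all lay above 0 in footprints of the PRMT1 label, from 0.24 for SSR2 to 1.28 for DDOST, with a median of 0.54. Of the 11 multispan proteins without a cleaved signal, 10 lay above 0 (median 0.37), STT3B being the exception. Of the 5 with a single N-terminal span, 4 lay above 0 (median 0.53), with OST4 below. Both tail-anchored proteins lay just below 0, SEC61B at -0.07 and SEC61G at -0.13, near OST4 at -0.11. A link to the way of insertion was not tested. The 7 cytosolic or peripheral proteins had a median of -0.17, and SRPRA and SRP72 were the 2 above 0. Among all protein-coding genes tested, 47.6% lay above 0 and the median was -0.02. The groups overlapped, since SRPRA at 0.40 lay above 12 of the 23 proteins inserted by a signal peptide or an N-terminal or internal span. In footprints of the PRMT4 label the medians lay closer, at 0.1 for signal peptide and 0.02 for cytosolic or peripheral proteins. In input of the PRMT1 label they were 0.1 and -0.02.

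**Figure D4:**
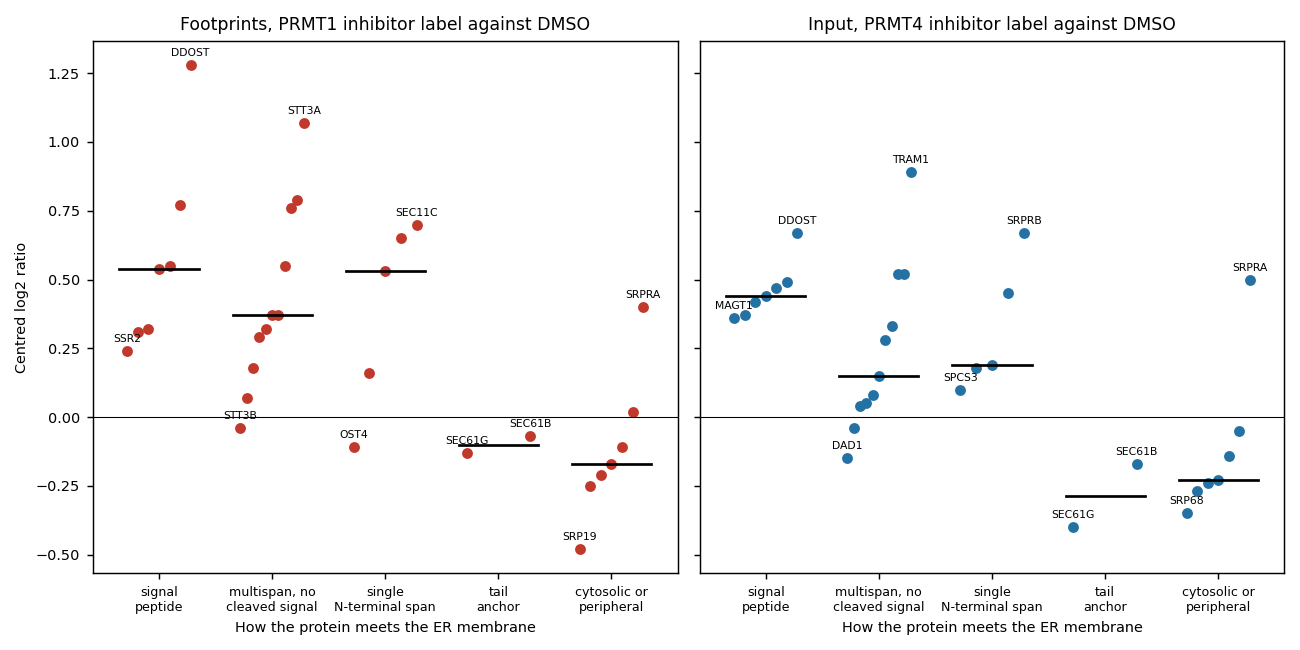
Centred log2 ratio to DMSO by membrane topology, in footprints of the PRMT1 label (left) and input of the PRMT4 label (right); each point is 1 gene and the bar is the group median. Signal peptide proteins have medians of 0.54 and 0.44, and cytosolic or peripheral proteins -0.17 and -0.23. Not drawn are footprints of the PRMT4 label, with medians of 0.1 and 0.02, and input of the PRMT1 label, with 0.1 and -0.02.

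Footprints labelled PRMT4 inhibitor lay nearer to DMSO. The list had a median of 0.08 with 19 of 32 genes above 0, and none was 1.5-fold or more higher or lower, against 3.09% and 1.83% of all genes. Among protein-coding genes the shares were 1.39% higher and 1.38% lower, with 48.5% above 0. The highest were RPN1 at 0.49, SEC11C at 0.48, DDOST at 0.46 and SPCS2 at 0.46. The lowest was STT3A at -0.34, and RPN2 and STT3B both stood at -0.25. RPN2 thus had 10.2 TPM in DMSO footprints, 13.8 TPM under the PRMT1 label and 8.37 TPM under the PRMT4 label, on either side of DMSO. The SRP proteins had a median of 0.04, with SRP54 at 0.33 and SRP72 at -0.24.

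In input, the library labelled PRMT1 inhibitor differed little from DMSO over these genes. The median was 0.16, with 25 of 32 genes above 0, and none was 1.5-fold or more away in either direction, against 1.91% and 0.918% of all genes. For protein-coding genes the shares were 0.259% higher and 0.554% lower, with 47.7% above 0. Without centring the median was 0.00. TRAM1 was highest at 0.49, followed by SPCS2 at 0.46, and SRP68 was lowest at -0.26.

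In the input library labelled PRMT4 inhibitor the median was 0.19 with 22 of 32 genes above 0. TRAM1 had 13.8 TPM in the DMSO input, 17.6 TPM under the PRMT1 label and 20.4 TPM under the PRMT4 label, a ratio of 0.89 and the highest of the list. DDOST had 21.0, 19.6 and 26.2 TPM (0.67) and SRPRB had 6.95, 8.30 and 8.84 TPM (0.67). These 3 genes, 9.38% of the 32, were at least 1.5-fold higher, against 5.85% of all genes. None was at least 1.5-fold lower, against 3.11%. Among protein-coding genes the shares were 3.15% higher and 2.65% lower, with 47.8% above 0. This library was also the one with the largest shift in scale: the median tested gene stood at -0.37 before centring, and without centring the list median was -0.18, no gene was 1.5-fold higher and 5 were 1.5-fold lower. The sign of the list median in this library therefore depended on the scale. Protein-coding genes held 33.4% of TPM in this input, against 45.7% in the DMSO input. As a share of protein-coding TPM the list had 0.296% here and 0.276% in DMSO.

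Differences between members do not depend on that shift, which moves all genes alike, whereas positions relative to 0 do. All 7 signal peptide proteins lay between 0.36 for MAGT1 and 0.67 for DDOST in this input. All 6 SRP proteins lay below 0, from -0.35 for SRP68 to -0.05 for SRP54. SEC61B stood at -0.17 and SEC61G, with 130 TPM in DMSO, 132 TPM under the PRMT1 label and 75.7 TPM under the PRMT4 label, at -0.40. The signal peptide and SRP groups, chosen with earlier results known, did not overlap here, but other members lay across both ranges. How many of all genes fell in either range was not counted, and the separation was not tested. Among protein-coding genes 47.8% lay above 0. SRPRA, which is peripheral, stood at 0.50 within the signal peptide range, and the multispan DAD1 at -0.15 within the SRP range, with SPCS2 next to it at -0.04.

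The TE of the PRMT1 label against DMSO, with the input of the same label, had a list median of 0.15. DDOST at 1.21, STT3A at 1.0, OSTC at 0.81 and RPN1 at 0.60 were at least 1.5-fold higher, 12.5% of the 32 genes against 8.45% of all genes. SRP19 at -0.64 was at least 1.5-fold lower, 3.12% against 3.81%. For protein-coding genes the shares were 6.05% higher and 2.59% lower, with 49.0% above 0. With the input of the other label under the same footprints, the median was 0.05 and only OSTC at 0.72 and DDOST at 0.59 were past 1.5-fold higher, 6.25% against 6.03% of all genes, with TRAM1 as much lower at -0.62, against 4.79% of all genes. STT3A then stood at 0.53, RPN1 at 0.31 and SRP19 at -0.23. OSTC, whose input was 53.8 TPM in DMSO, 47.4 TPM under the PRMT1 label and 43.1 TPM under the PRMT4 label, was the one of these 4 whose TE depended least on the input chosen.

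The TE of the PRMT4 label with its own input had a median of -0.14, and 12 of 32 genes lay above 0. STT3A at -0.87, RPN2 at -0.75 and TRAM1 at -0.68 were at least 1.5-fold lower, 9.38% against 8.22% of all genes, and SEC61G at 0.69 was at least 1.5-fold higher, 3.12% against 4.7%. Among protein-coding genes the shares were 3.78% higher and 6.17% lower, with 50.8% above 0. With the other label's input no gene was past 1.5-fold in either direction, against 2.05% and 2.91% of all genes, and STT3A stood at -0.41, RPN2 at -0.45, TRAM1 at -0.27 and SEC61G at 0.10. Without centring the median with its own input was 0.24, 9 genes were 1.5-fold higher and none lower.

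Set directly against each other, the inhibitor labels share no DMSO library. In footprints, STT3A (1.41), SEC63 (0.91), DDOST (0.82) and RPN2 (0.81) were at least 1.5-fold higher under the PRMT1 label than under the PRMT4 label, 12.5% of the 32 genes against 8.52% of all genes. SRP19 was at least 1.5-fold lower at -0.72, 3.12% against 2.69%. Among protein-coding genes the shares were 6.0% higher and 1.91% lower, with 48.4% above 0. In input, SEC61G at 0.61 was the only gene at least 1.5-fold higher under the PRMT1 label, 3.12% against 4.02%, and none was as much lower, against 4.14%. For protein-coding genes the shares were 3.18% higher and 2.43% lower, with 50.9% above 0. DDOST stood at -0.58 and SSR2 at -0.51 there. Over the 32 genes the input and footprint differences had a Pearson correlation of -0.63 and a Spearman correlation of -0.65. DDOST, STT3A and RPN2 had more footprints but less input under the PRMT1 label than under the PRMT4 label. Whether labels were exchanged between libraries was not tested.

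**Figure D5:**
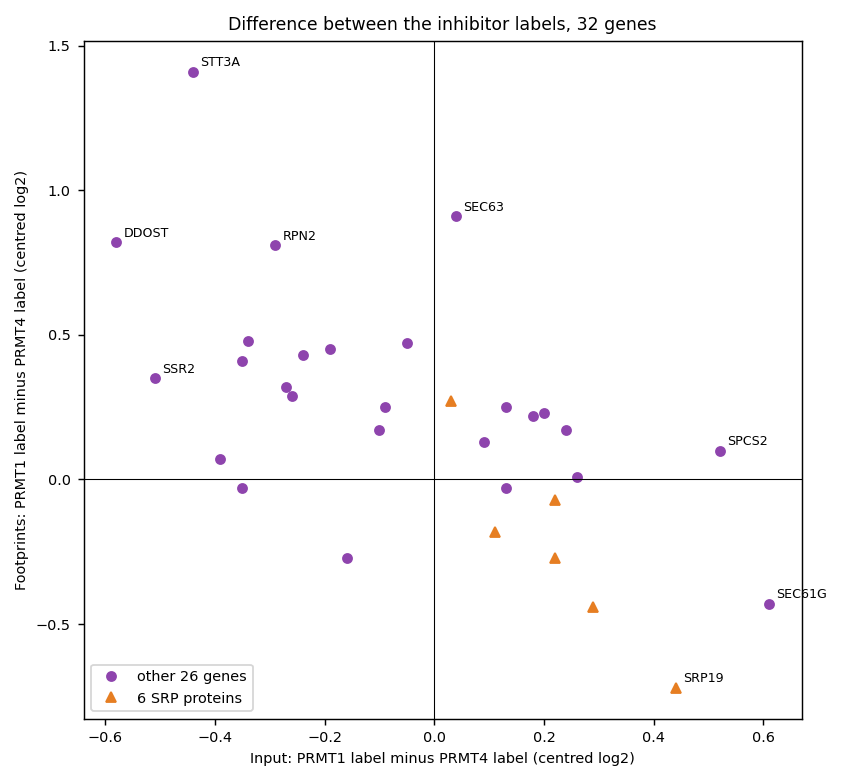
Difference between the PRMT1 and PRMT4 inhibitor labels (centred log2) in footprints against the same difference in input for 32 genes; each point is 1 gene, and triangles are the 6 SRP proteins. DDOST, STT3A and RPN2 lie at upper left and SRP19 and SEC61G at lower right.

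Promoter sequence was searched after the values above were known. Windows from 250 bases before to 50 after the start site were found in RefSeq (GRCh38.p14) for 29 of the 35 genes; RPN1, STT3B, TUSC3, TRAM1, SPCS1 and SRPRA had none. Both strands were searched for 16 patterns, and no match was tested. The ER stress element ERSE, which is CCAAT and CCACG with 9 bases between them and through which chaperone genes answer unfolded proteins, was in none of the 37 windows of these genes and in 0.0769% of all 35116 windows. ERSE-II, which is ATTGG and CCACG with 1 base between them, was in none and in 0.0541%. Its parts alone were common: CCAAT was in 18 of the 37 windows and 34.6% of all windows, and CCACG in 24 of the 37 and 38.1% of all. By gene, CCAAT was found for 15 and CCACG for 20 of the 29. Some windows of the same gene overlap, so a match can be counted more than once, here and below. The upstream parts of the 2 genes highest in footprints of the PRMT1 label are shown, with every CCAAT and CCACG on either strand in capitals. That of DDOST is on the minus strand at chr1:20661370-20661619, and that of STT3A on the plus strand at chr11:125592602-125592851.
DDOST: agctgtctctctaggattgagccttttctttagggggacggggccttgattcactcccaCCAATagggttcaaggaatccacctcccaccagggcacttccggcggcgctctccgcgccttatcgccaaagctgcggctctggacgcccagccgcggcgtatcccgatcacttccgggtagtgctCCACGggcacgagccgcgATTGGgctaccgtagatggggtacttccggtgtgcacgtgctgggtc
STT3A: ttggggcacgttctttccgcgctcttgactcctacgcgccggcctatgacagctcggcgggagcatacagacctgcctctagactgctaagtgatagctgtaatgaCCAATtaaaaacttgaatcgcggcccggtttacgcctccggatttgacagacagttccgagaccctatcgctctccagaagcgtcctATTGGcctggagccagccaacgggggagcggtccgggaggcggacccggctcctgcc

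The unfolded protein response element TGACGTGG, the site of XBP1 and ATF6, was in 4 of the 37 windows, each of another gene, against 0.729% of all windows. Its core GACGTGG was in 9 windows and 3.13% of all. It contains the reverse complement of CCACG, so these matches overlap the counts above. The 4 stretches are shown with the element in capitals, read as its reverse complement on the gene's strand. They lie at chr3:169966779-169966806 on the plus strand for SEC62, chr5:112861164-112861193 on the plus strand for SRP19, chr3:156554148-156554177 on the minus strand for SSR3 and chrX:153794528-153794557 on the plus strand for SSR4.
SEC62: ccctcctcgctCCACGTCAgagggaacc
SRP19: aagtcttcatgCCACGTCAgagactagaga
SSR3: tctgataacagCCACGTCAgcaaggaaact
SSR4: tcagggaggggCCACGTCAgtgctgccaga
None of these 4 was among the 7 genes past 1.5-fold in footprints of the PRMT1 label, of which RPN1 had no window and was not searched. SEC62 stood at 0.37, SSR4 at 0.31, SSR3 at 0.18 and SRP19 at -0.48. The amino acid response element TGATGNAA was in the window of SRPRB only and in 3.62% of all windows. The antioxidant core TGACNNNGC was in 5 windows and 13.3% of all. In SRP19, SSR3 and SSR4 a match of this core overlapped the element shown above, so these are not separate. The E-box CACGTG was in 5 windows and 7.26% of all. The SP1 letters GGGCGG were in 28 windows and 45.0% of all, the ETS letters ACTTCCG in 8 and 6.83%, TGATGNNAT in 3 and 3.36%, the YY1 letters in 2 and 0.849%, and the NRF1 letters in 1 and 1.24%. The cyclic AMP element TGACGTCA was in none and 1.85% of all, and ERSE without its last base in none and 0.316%. A match is a stretch of letters and not a site shown to be bound.

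Other genes of the same route were described from 8 lists. In footprints of the PRMT1 label the genes of glycan trimming and the glycan-binding lectins of the ER stood highest, with a median of 0.58. All 8 of 9 listed that passed the filter lay above 0, and 4, or 50.0%, were at least 1.5-fold higher. Of all genes tested 9.48% were as much higher and 4.65% as much lower, and of protein-coding genes 6.67% and 4.2%. The lectin chaperone CANX had 22.7 TPM in DMSO footprints, 52.4 TPM under the PRMT1 label and 30.1 TPM under the PRMT4 label (1.32 for the PRMT1 label), and the glucosidase MOGS was lowest at 0.06. Of the remaining oligosaccharyltransferase subunits, KRTCAP2 stood at 0.62 and TMEM258 at 0.10. The enzymes that build the lipid-linked glycan had a median of 0.09 over 13 of 24 listed genes, none past 1.5-fold, from ALG5 at -0.20 to ALG3 at 0.57.

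Genes of other insertion routes were spread on both sides of the median gene. The ER membrane complex EMC, which inserts certain multispan and tail-anchored proteins, had a median of -0.11 over 9 of 10 genes with none past 1.5-fold, from EMC8 at -0.48 to EMC3 at 0.45. The GET route for tail anchors had a median of 0.11 over 7 of 7, with 1 gene at least 1.5-fold higher, CAMLG at 0.60, and SGTA lowest at -0.42. The multipass translocon had a median of 0.15 over 8 of 9, with 1 gene at least 1.5-fold higher, NCLN at 1.02. NOMO2, whose near-identical copies make its value uncertain, was lowest at -0.54. Of the ribosome-binding proteins of the ER, 2 of 4 passed the filter, KTN1 at 0.60 and LRRC59 at -0.60. The COPII coat, which carries cargo out of the ER, had a median of -0.05 over 10 of 12, with 2 genes 1.5-fold or more lower and none as much higher, from SEC23B at -0.72 to SAR1B at 0.53. No difference between these lists and the 32 genes was tested.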

How the data were processed

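All 6 libraries were used, an input and a footprint library for each of 3 groups. RNase I digestion of the lysates was followed by collection of monosomes on sucrose gradients, per the labels' protocols. The authors deposited TPM per gene. Tools listed in the submitters' processing notes, without roles, are RSEM 1.2.22, STAR 2.4.2a, Bowtie 1.1.2 and cutadapt 1.18; the build is GRCh37.p13. TPM holds no depth, so the precision of single values is unknown.

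Columns were matched to libraries by name. Of 60461 identifiers, 41 Y pseudoautosomal copies, at 0 in every library, were dropped. Symbols were found for 55725, and gene types for 56157 in GENCODE release 29 (GRCh38), which gave no coordinates for the measurements. Ratios were log2((TPM + 1) / (TPM + 1)) for the 9040 genes with a mean of at least 5 TPM, centred on their median, with Python 3.11.15, numpy 2.4.6, pandas 2.3.3 and statsmodels 0.14.6. The pseudocount understates changes of low genes. Genes at least 1.5-fold and 2-fold from the median gene were counted. The steps were tested on simulated data. Alternatives were other pseudocounts, filters, centring, scaling, a GC content and length adjustment, and the other label's input for TE.

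All members may be named. In each list of related genes the highest and lowest in footprints of the PRMT1 label were named. The members, subgroups, topology classes and lists were chosen with earlier results of these data known, and the coding lengths, promoter motifs, printed sequences, protein-coding background and the 0.1 log2 tolerance for a moved median after the values were seen. RN7SL1 and RN7SL2, also named by the rule, and PECAM1 had no matched row.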

Additional observations from a re-analysis of the deposited data

Results flagged for a closer look

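STT3A, a catalytic oligosaccharyltransferase subunit, had a TE ratio to DMSO of 1.0 under the PRMT1 label and of -0.87 under the PRMT4 label. It was the only gene of the 32 that stood at least 1.5-fold from the median gene in opposite directions under the 2 labels in input, footprints or TE. The 1.5-fold limit was set after the values were seen. By sign alone, 7 genes in input, 16 in footprints and 20 in TE stood on opposite sides of the median gene under the 2 labels. None of these counts, nor that of genes past 1.5-fold in opposite directions, was made over all genes, so they describe the list alone. With 1 library per group the difference was not tested. Its footprint levels were low, at 6.35 TPM in DMSO, 12.9 TPM under the PRMT1 label and 4.78 TPM under the PRMT4 label. With the other label's input the values were 0.53 and -0.41, both short of 1.5-fold and still of opposite sign.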

How the results depend on the processing

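No paired analysis was possible because each group has 1 library. Of 337 values of genes past 1.5-fold recomputed under the alternatives, 283 stayed past 1.5-fold and 54 did not; none of these changed sign, but list medians did. Without centring, list medians against DMSO were 0.00 (input) and 0.17 (footprints) for the PRMT1 label, and -0.18 (input) and 0.24 (TE) for the PRMT4 label, the last 2 of opposite sign to the centred 0.19 and -0.14. With no filter they were 0.01, 0.17, -0.15 and 0.21. Between the labels, medians were 0.18 in input (0.2 with no filter, -0.14 after GC and length adjustment, against -0.01) and 0.08 in footprints (0.08 with no filter, against 0.22). The DMSO TE median was 0.31 at a mean of at least 1 TPM, against 0.12. With the other label's input, TE of the PRMT1 label had a median of 0.05 against 0.15 and 2 genes higher against 4.

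Counts at least 1.5-fold higher or lower moved as follows. Input of the PRMT1 label had 1 higher after protein-coding rescaling, against 0. Input of the PRMT4 label, against 3 higher and 0 lower, had 1 higher with a pseudocount of 5, 0 higher and 5 lower without centring, and 0 higher and 3 lower with no filter. Footprints of the PRMT1 label, against 7 higher and 0 lower, had 4 higher with a pseudocount of 5, and 1 lower without centring (1 with no filter). Footprints of the PRMT4 label had 1 higher, against 0, at a mean of at least 1 TPM, with no filter and after rescaling. TE of the PRMT1 label had 0 lower, against 1, with a pseudocount of 5 and after GC and length adjustment. TE of the PRMT4 label, against 1 higher and 3 lower, had 9 higher and 0 lower without centring and with no filter, 0 higher with the lowess trend and after GC and length adjustment, 1 lower with a pseudocount of 5, and 0 of each with the other label's input. Input between the labels, against 1 higher and 0 lower, had 3 higher without centring and with no filter, 0 higher and 1 lower with the lowess trend, 0 higher and 2 lower after GC and length adjustment, and 1 lower with a pseudocount of 0.1 and after rescaling. Apart from centring and the genes admitted, which act by construction, the cause was not tested. Depth is unknown, so values of a few TPM, as for STT3A, STT3B and SEC63 footprints, are limited in precision.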
